A study of Homo sapiens with 6 samples.

Results

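The genes described here are 31 genes of cholesterol and fatty acid synthesis and of its control, taken by symbol from a table of 26372 genes. All 31 symbols were found. SH-SY5Y cells, a human neuroblastoma line of sympathetic (noradrenergic) character used as a model of neurons, had been infected with lentivirus carrying a short hairpin RNA (shRNA). Poly(A) RNA was sequenced in 3 libraries of cells with an shRNA against TDP-43 (the knockdown, titled shT2) and 3 of cells with a control shRNA (titled shNC3). TDP-43, the product of TARDBP, binds RNA in the nucleus and leaves it in affected neurons of most patients with amyotrophic lateral sclerosis. The protocol describes a U6 promoter vector, puromycin selection and long-term puromycin for the stable knockdown cells, and growth in serum-containing medium. The labels name 1 hairpin for each arm. They do not say whether either arm is a clone, or whether the 3 libraries of an arm are separate cultures. The p-values therefore reflect the library-to-library spread alone, and that spread may be technical.

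Cholesterol is built from acetyl-CoA through mevalonate, farnesyl diphosphate, squalene and a series of sterols. Its genes are switched on by SREBP transcription factors, which sit in the endoplasmic reticulum (ER) membrane and are escorted by SCAP to the Golgi for cleavage when sterol is low, while INSIG proteins hold SCAP back when sterol is high. SREBP2 acts mainly on cholesterol genes and SREBP1 mainly on fatty acid genes. The liver X receptors (LXR) respond to oxysterols and switch on cholesterol export, and neurons and glia make their own cholesterol because lipoproteins of the blood do not enter the brain.

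In the knockdown 3 of 5 genes of the SREBP control step and both fatty acid genes among the 31 were higher. Of 18 enzyme genes of cholesterol synthesis 3 were higher, 5 were lower and 10 did not pass the test. Over all tested genes 30.5% were higher, 35.9% were lower and 33.7% did not pass. In a list of further fatty acid genes 3 of 24 tested were higher and 15 lower. SREBF2, which encodes SREBP2, stood at 190% of the control, SCAP at 148%, and the stearoyl-CoA desaturase gene SCD at 202%. TM7SF2, a sterol reductase gene among the 18 enzymes, stood at 203%. The summed level of the 18 cholesterol enzymes was 310.3 ± 6.13 FPKM in control cells and 294.7 ± 4.58 with the knockdown (SD, n = 3 each). FPKM is a fragment count divided by transcript length and by the size of the library. The sterol carrier gene STARD4, the sterol dehydrogenase gene NSDHL and the cholesterol exporter gene ABCA1 were lower, at 64.7%, 67.3% and 53.4% of the control. The other exporter gene, ABCG1, stood at 1.74 ± 0.106 FPKM against 0.190 ± 0.105, but its mean over all libraries was too low for the test. In bulk RNA, fewer cells of a type and less RNA per cell cannot be told apart.

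Values were compared as log2(FPKM + 1) by limma with Benjamini-Hochberg adjustment over the genes whose mean reached 1 FPKM. A gene counts as called where the adjusted p was below 0.05. A difference is given on that scale as knockdown minus control, and it understates the change of low genes. Of the 31 genes 29 were tested, and NR1H3 and ABCG1 fell under the minimum. Of the 29, 16 were called, 8 higher and 8 lower, and 13 were not. Over all 13434 tested genes 66.3% were called, 30.5% higher and 35.9% lower, and 33.7% were not, so the share of the 29 that was called is not above the background. The median difference of the 29 was -0.05, against -0.02 for all tested genes, and the median size of difference was 0.21, against 0.31. A difference of at least 0.5 was called for 7 of the 29 (31.2% of all tested genes), 4 of them higher (12.7% of all) and 3 lower (18.5% of all), and none of the 29 reached 1 (11.3% of all). The groups did not overlap for 18 of the 29 (70.8% of all tested genes), with the knockdown above for 8 (32.5% of all) and below for 10 (38.2% of all).

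**Figure D1:**
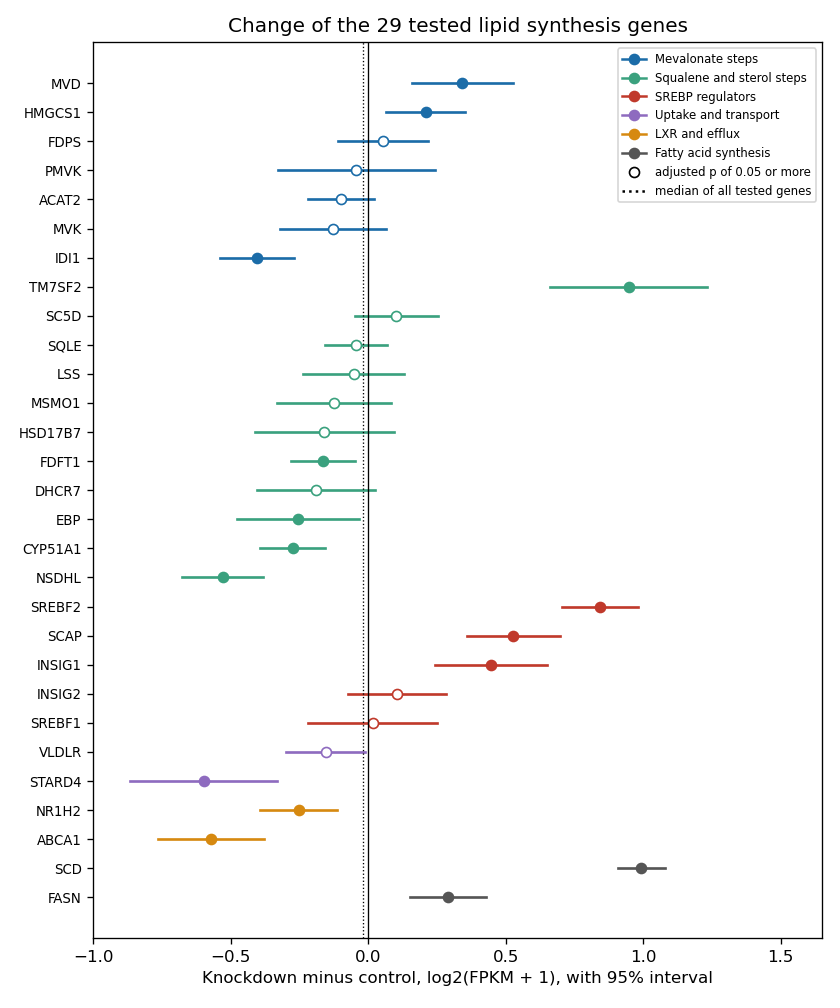
Difference between knockdown and control on the log2(FPKM + 1) scale for the 29 tested genes, grouped by role (colours), with the 95% interval from limma as bars; filled points have an adjusted p under 0.05. SCD, TM7SF2 and SREBF2 lie farthest to the right and STARD4, ABCA1 and NSDHL farthest to the left, while most enzymes lie within 0.3 of 0.

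The targeted gene TARDBP read 21.9, 20.7 and 21.0 FPKM with the TDP-43 hairpin and 50.3, 50.3 and 47.7 with the control hairpin, a difference of -1.19 (limma adjusted p = 6.69e-08). Permuting the 6 libraries exactly, two-sided, gave p = 0.1, the smallest that 3 against 3 allow. FPKM does not give read numbers, so absolute depth is unknown. Relative depth was estimated from the commonest ratio of low values (under 0.3 FPKM) to control library 1. It was 52.9% to 94.4% of the deepest library in the knockdown, with library 2 the lowest, and 84.2% to 100% in the control. For knockdown library 2 only 99 of 1363 values lay at that ratio, against 255 of 1516 and 277 of 1664 for libraries 1 and 3. Its estimate is thus the least secure. The noradrenergic genes HAND2, GATA3 and DBH were present in all libraries, and TH was listed at 0 in all 6. Of 18 tested noradrenergic markers 13 were called higher and 4 lower, where 30.5% and 35.9% of all tested genes were. Of 25 mesenchymal markers 23 were called lower in the knockdown and 1 higher, and their summed level was 1031 to 1051 FPKM against 4456 to 4505. ANXA1 and CAV1 were listed at 0 in all knockdown libraries. The summed level of 20 noradrenergic markers was 1468 to 1595 FPKM with the knockdown against 1322 to 1332, and that of 7 Schwann and glial markers 7.58 to 9.14 against 2.72 to 2.85. The summed level of the markers of the 293T packaging line was at most 0.0793 FPKM in any library. The lipid genes were thus compared between arms that also differ in these markers, and the part of the markers in the results was not tested.

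The 4 genes whose promoters are shown had the largest called differences, on the log2(FPKM + 1) scale, among those in the RefSeq promoter table. The sequences are from RefSeq on GRCh38.p14, run 5′ to 3′ on the strand of the gene, and stop before the first base of the gene in RefSeq or in GENCODE v29, whichever comes first. They lie at chr10:100346983-100347123 (SCD, plus strand), chr11:65111622-65111844 (TM7SF2, plus strand), chr22:41832855-41833078 (SREBF2, plus strand) and chr5:111512591-111512785 (STARD4, minus strand). Capitals mark a sterol regulatory element, TCACNCCAC, the kind of site SREBP binds, or an NF-Y box, CCAAT, a common partner site, on either strand (CCAAT reads ATTGG on the other).
SCD: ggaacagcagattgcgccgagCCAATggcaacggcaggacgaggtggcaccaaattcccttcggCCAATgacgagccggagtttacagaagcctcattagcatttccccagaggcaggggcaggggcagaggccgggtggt
TM7SF2: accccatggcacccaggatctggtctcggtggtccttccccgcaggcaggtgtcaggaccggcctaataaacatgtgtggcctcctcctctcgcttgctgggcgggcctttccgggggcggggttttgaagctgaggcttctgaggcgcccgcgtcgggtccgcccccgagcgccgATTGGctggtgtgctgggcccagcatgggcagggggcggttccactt
SREBF2: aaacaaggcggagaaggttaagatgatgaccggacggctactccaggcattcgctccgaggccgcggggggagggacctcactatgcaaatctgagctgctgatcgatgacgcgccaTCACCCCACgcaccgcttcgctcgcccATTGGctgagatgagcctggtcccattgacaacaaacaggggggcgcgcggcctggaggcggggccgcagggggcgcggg
STARD4: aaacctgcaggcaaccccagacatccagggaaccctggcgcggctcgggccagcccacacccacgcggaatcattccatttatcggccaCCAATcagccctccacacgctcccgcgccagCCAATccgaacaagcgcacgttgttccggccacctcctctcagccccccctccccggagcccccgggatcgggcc

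SREBF2 held the sterol regulatory element, with its first base at position -133 from the RefSeq start, and an NF-Y box at -106. The other 3 held no TCACNCCAC in these windows, and 1 or 2 NF-Y boxes each. The same letters were searched in the 250 bases before each RefSeq start. The table held 35 such windows for 26 of the 31 genes, and windows of the same gene can overlap. TCACNCCAC was in 1 of the 35 (2.86%), against 0.846% of the 14538 windows of all tested genes and 0.883% of all 35116 windows. CCAAT was in 20 of the 35 (57.1%), against 33.2% and 32.0%. The Sp1 box GGGCGG was in 31 (88.6%), against 62.7% and 42.6%, and the E-box CACGTG in 5 (14.3%), against 8.09% and 6.34%. A match describes the letters only. Genes that rose and genes that fell both held NF-Y boxes, as the SCD and STARD4 sequences show.

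Among the SREBP regulators 3 of 5 rose and none fell, where 30.5% of all tested genes rose and 35.9% fell. The called share was 60.0%, against 66.3% of all tested genes. SREBF2 (chromosome 22, 41833079 to 41907308, plus strand, GENCODE v29 on GRCh38) had 13.7, 14.4 and 13.3 FPKM with the TDP-43 hairpin. With the control hairpin it had 6.90, 7.16 and 7.67. The groups lay far apart, with every knockdown value above 13 and every control value below 8. The difference was 0.84 (standard error 0.061, limma adjusted p = 3.71e-06). With columns rescaled to equal sums, a scaling under which the median of all tested genes was -0.82, it was 0.02 and not called, 0.84 above that median.

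Its paralogue SREBF1 (chromosome 17, 17810399 to 17837002, minus strand), the SREBP gene of fatty acid synthesis, stood at 3.03, 3.48 and 2.62 FPKM against 2.77, 2.83 and 3.37. The groups overlapped, and the difference of 0.02 had a 95% interval of -0.22 to 0.25 (limma adjusted p = 0.896). FPKM is per length, so the paralogues can be set side by side within a library, where a single scaling factor cancels. The ratio of SREBF2 to SREBF1 was 4.53, 4.13 and 5.07 in the knockdown and 2.49, 2.53 and 2.28 in the control, with no overlap. MIR33A and MIR33B, microRNA genes inside introns of SREBF2 and SREBF1, were listed at 0 in all 6 libraries. Poly(A) libraries do not measure mature microRNAs.

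SCAP (chromosome 3, 47413694 to 47477126, minus strand), the escort of SREBP, stood at 17.1, 20.1 and 16.5 FPKM in the knockdown and at 12.3, 11.8 and 12.2 in the control. Library 2 was the highest of the knockdown, and all 3 lay above every control value. SCAP rose by 0.53 (standard error 0.074, limma adjusted p = 2.56e-04), and the sign was the opposite with columns rescaled to equal sums (-0.32, or 0.50 above the median of all genes).

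INSIG1 (chromosome 7, 155297776 to 155310235, plus strand), an ER retention protein whose gene is itself a target of SREBP, stood at 12.3, 9.52 and 11.3 FPKM against 7.67, 7.53 and 8.26. Here library 2 was the lowest of the knockdown, and the groups still did not overlap. INSIG1 rose by 0.45 (standard error 0.089, limma adjusted p = 0.00217), and the sign was the opposite with equal sums (-0.37, or 0.45 above the median). INSIG2 (chromosome 2, 118088452 to 118110997, plus strand), the second retention protein, stood at 11.9, 10.3 and 12.1 FPKM against 9.81, 11.5 and 10.4. Its groups overlapped, the interval of the difference was -0.07 to 0.28, and it was not called, though it was called higher with quantile normalization (0.21, adjusted p = 0.0355). The ratio of INSIG1 to INSIG2 was 0.921 to 1.04 in the knockdown and 0.655 to 0.798 in the control.

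**Figure D2:**
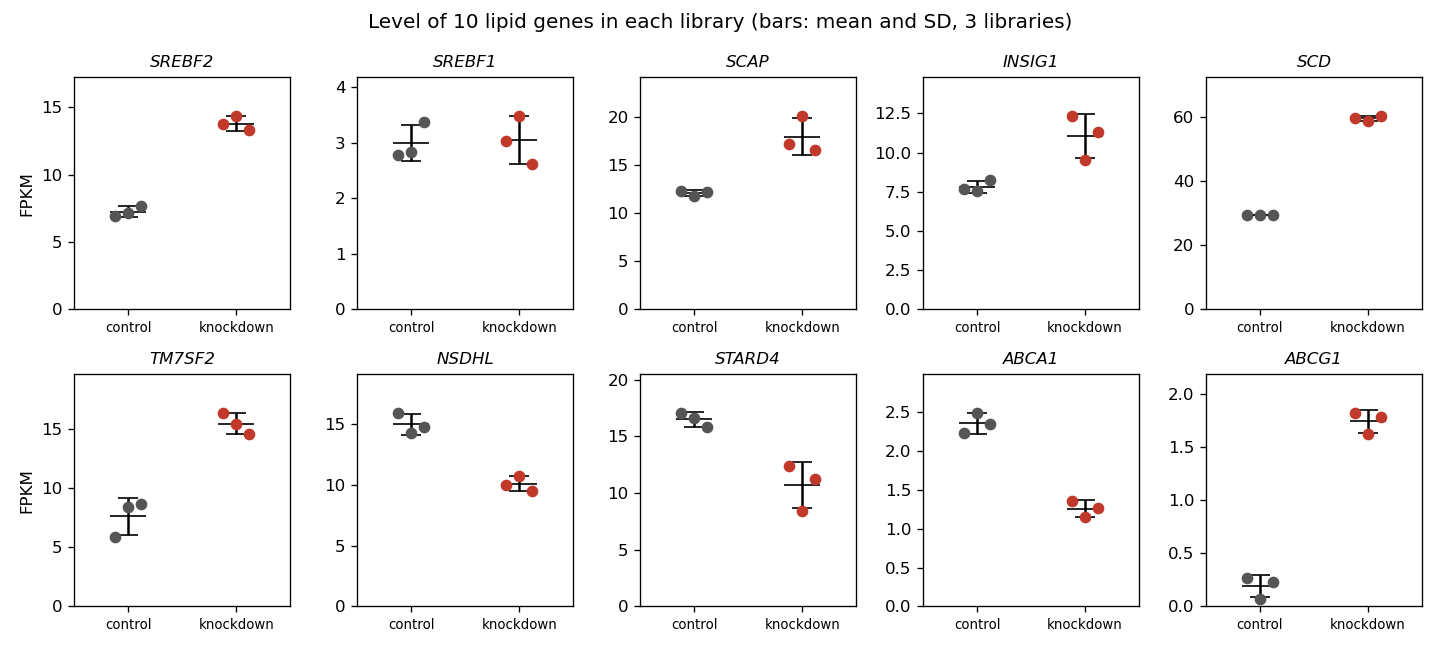
FPKM of 10 genes in each of the 3 control (grey) and 3 knockdown (red) libraries, with the mean and SD as black bars and axes that start at 0. The groups overlap for SREBF1 and for none of the other 9 genes shown.

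Of the 7 genes from acetyl-CoA to farnesyl diphosphate, 2 rose, 1 fell and 4 were not called (42.9% called, against 66.3% of all tested genes). Their summed level was 128 ± 8.56 FPKM against 130.0 ± 1.52. HMGCS1, the synthase that makes HMG-CoA, stood at 13.8, 12.4 and 14.0 FPKM in the knockdown and at 11.4, 11.0 and 11.9 in the control. The groups did not overlap, and the gene rose by 0.21 (standard error 0.062, limma adjusted p = 0.0163), with the opposite sign under equal sums (-0.63, or 0.19 above the median of all genes). The call was lost without control library 2 (adjusted p = 0.0661), without knockdown library 1 (0.0554) and without knockdown library 3 (0.0541). MVD, which decarboxylates the mevalonate product to isopentenyl diphosphate, rose by 0.34 (5.43 ± 0.550 against 4.06 ± 0.149 FPKM, limma adjusted p = 0.00510), again with the opposite sign under equal sums (-0.40, or 0.42 above the median).

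IDI1, the isomerase of isopentenyl diphosphate, went the other way. It stood at 16.1, 15.0 and 15.6 FPKM against 20.4, 22.4 and 20.0, and every knockdown value was below every control value. IDI1 fell by 0.40 (standard error 0.058, limma adjusted p = 3.15e-04). IDI1, NSDHL and STARD4 were called lower under all 18 alternatives, and ABCA1 under the 17 that tested it. Under equal sums, 1 of these alternatives, the median of all genes was -0.82, which works toward calls of lower.

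The thiolase gene ACAT2, the mevalonate kinase gene MVK, the phosphomevalonate kinase gene PMVK and FDPS, which makes farnesyl diphosphate, were not called. Their differences were -0.10, -0.13, -0.04 and 0.05, and the widest interval was that of PMVK, from -0.33 to 0.24. PMVK stood at 25.5 FPKM in knockdown library 2 and at 18.8 and 17.1 in the others. Without that library PMVK and MVK were called lower (-0.21 and -0.20, adjusted p = 0.0133 and 0.0424). FDPS had the highest level of the 31 genes in the control, at 53.4 ± 3.21 FPKM, and was called higher with quantile normalization (0.32, adjusted p = 0.00722). ACAT2 was called lower with equal sums computed without 6 small RNAs (-0.13, adjusted p = 0.0448). In GENCODE v29 ACAT2 shares 33.9% of its exon bases with an antisense gene, and 8 pseudogenes are named after FDPS, so the levels of both are uncertain where reads were shared. FDPS, HMGCS1 and IDI1 share 18.6%, 15.0% and 14.8% of their exon bases with antisense genes, and 13 of the 31 genes share some.

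Of the 11 genes from squalene synthesis to cholesterol, 1 rose, 4 fell and 6 were not called (45.5% called, against 66.3% of all tested genes). Their summed level was 166 ± 5.43 FPKM against 180.3 ± 4.83. TM7SF2 (chromosome 11, 65111845 to 65116384, plus strand), a sterol reductase of the ER and inner nuclear membrane, was the gene that rose. It stood at 16.4, 15.4 and 14.6 FPKM in the knockdown and at 5.85, 8.44 and 8.64 in the control. Control library 1 was the lowest of the 6, and the groups were wide apart. The difference was 0.95 (standard error 0.12, limma adjusted p = 1.74e-04). With equal sums it was 0.12 and not called, 0.94 above the median of all genes. LBR, which encodes the other sterol reductase of that step, fell by 0.31 (30.3, 22.7 and 27.8 FPKM against 34.5, 34.9 and 30.9, limma adjusted p = 0.0219).

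NSDHL (chromosome X, 152830967 to 152869729, plus strand), a dehydrogenase that removes the sterol methyl groups at carbon 4 together with MSMO1 and HSD17B7, stood at 9.98, 10.7 and 9.50 FPKM against 15.9, 14.3 and 14.7. No knockdown value came near a control value. NSDHL fell by 0.53 (standard error 0.065, limma adjusted p = 1.10e-04). MSMO1 and HSD17B7 were not called, with differences of -0.12 and -0.16 and intervals of -0.33 to 0.08 and -0.41 to 0.09. Pseudogenes named after HSD17B7 number 2, and reads may be shared with them.

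CYP51A1, the lanosterol demethylase, fell by 0.28 (27.4 ± 1.53 against 33.3 ± 0.666 FPKM, limma adjusted p = 0.00139). The call was lost with quantile normalization (-0.07, adjusted p = 0.247), and an annotated gene of the same strand shares 79.4% of the exon bases of CYP51A1, so its level is uncertain. FDFT1, the squalene synthase, fell by 0.16 (32.3 ± 1.38 against 36.3 ± 1.54 FPKM, limma adjusted p = 0.0195), and had the opposite sign with quantile normalization (0.07, adjusted p = 0.220). The FDFT1 call was also lost with no filter (adjusted p = 0.0526) and without control library 2 or 3 (0.0652 and 0.0767).

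EBP, the sterol isomerase, fell by 0.26 (14.6 ± 2.12 against 17.6 ± 0.922 FPKM, limma adjusted p = 0.0438). Its call was lost in 7 of 18 alternatives, among them the omission of control library 1, 2 or 3 (adjusted p = 0.0983, 0.0570 and 0.132). Without knockdown library 2 the EBP difference was -0.14. The squalene epoxidase gene SQLE, the lanosterol synthase gene LSS, the desaturase gene SC5D and the final reductase gene DHCR7 were not called. SQLE stood at 18.5, 19.1 and 19.8 FPKM against 19.4, 19.5 and 20.4, and its interval of -0.16 to 0.07 spans 0 closely. LSS and SC5D differed by -0.05 and 0.10, with intervals of -0.24 to 0.13 and -0.05 to 0.25. The DHCR7 difference was -0.19, with an interval of -0.41 to 0.03. DHCR7 was called lower without knockdown library 2 (-0.27, adjusted p = 0.0219). SC5D was called higher with quantile normalization (0.19, adjusted p = 0.0242).

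Levels of SREBF2 and SCD were also set against the enzymes within each library. SREBF2 equalled 4.65%, 4.81% and 4.59% of the summed level of the 18 enzymes in the knockdown libraries and 2.24%, 2.34% and 2.42% in the control libraries. SCD equalled 19.7% to 20.9% of that sum against 9.27% to 9.64%. These ratios were chosen after the values were seen, and a single scaling factor for a library cancels in them. Quantile normalization is not a single factor, and the ratios were not computed under it.

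STARD4 (chromosome 5, 111496033 to 111512590, minus strand), a soluble carrier of sterol between membranes and a known SREBP target, stood at 12.4, 8.41 and 11.3 FPKM in the knockdown and at 17.1, 16.6 and 15.8 in the control. Knockdown library 2 was the lowest of all 6, and the groups did not overlap. STARD4 fell by 0.60 (standard error 0.12, limma adjusted p = 0.00183). VLDLR, a receptor for lipoproteins and reelin, stood at 6.34, 6.39 and 6.38 FPKM against 7.49, 7.43 and 6.72. The groups did not overlap, but the gene missed the threshold (-0.16, interval -0.30 to -0.01, limma adjusted p = 0.0558). It was called lower without control library 3 (-0.20, adjusted p = 0.0365), without the intensity trend (adjusted p = 0.0419) and with equal sums computed without 6 small RNAs (adjusted p = 0.0289).

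On the LXR and export side both tested genes fell, as did 35.9% of all tested genes. An untested gene was far higher in the knockdown. ABCA1 (chromosome 9, 104781002 to 104928237, minus strand), which loads cholesterol onto lipid-poor apolipoproteins, stood at 1.36, 1.15 and 1.26 FPKM against 2.23, 2.49 and 2.36. The groups were clearly apart at a low level. ABCA1 fell by 0.57 (standard error 0.084, limma adjusted p = 3.54e-04). ABCG1 (chromosome 21, 42199689 to 42297244, plus strand), which exports cholesterol to lipoprotein particles, stood at 1.83, 1.62 and 1.78 FPKM in the knockdown and at 0.267, 0.0696 and 0.232 in the control.

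Every ABCG1 value in the knockdown was above every control value, and the ratio of the means was 9.20. The mean over the 6 libraries was 0.967 FPKM, just under the minimum of 1. With a minimum of 0.1 FPKM, ABCG1 was called higher (1.21, limma adjusted p = 1.11e-05). At that minimum 59.1% of 16933 genes were called. The ratio of ABCG1 to ABCA1 in a library was 1.34 to 1.41 in the knockdown and 0.0279 to 0.120 in the control.

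NR1H2 (chromosome 19, 50329653 to 50382982, plus strand), the widely expressed LXR beta, stood at 14.0, 13.9 and 13.4 FPKM against 15.7, 16.1 and 18.05. The groups did not overlap, and NR1H2 fell by 0.25 (standard error 0.062, limma adjusted p = 0.00616). The call was lost with quantile normalization (-0.14, adjusted p = 0.0894). NR1H3 (chromosome 11, 47248300 to 47269032, plus strand), LXR alpha, stood at 0.518, 0.753 and 0.341 FPKM against 0.965, 0.419 and 0.525. These values overlapped, lay under the minimum, and were not called when the minimum was 0.1 FPKM (-0.08, adjusted p = 0.640). The ratio of NR1H2 to NR1H3 also overlapped, at 18.4 to 39.4 in the knockdown and 16.3 to 38.3 in the control.

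Both fatty acid genes rose, as did 30.5% of all tested genes. SCD (chromosome 10, 100347124 to 100364834, plus strand), which puts the first double bond into saturated fatty acids, stood at 59.7, 58.9 and 60.4 FPKM in the knockdown and at 29.6, 29.4 and 29.4 in the control. The libraries of a group were within 2 FPKM of each other, and the knockdown values were about 30 FPKM higher. The difference was 0.99 (standard error 0.038, limma adjusted p = 6.70e-08). As a ratio of means the rise was 2.02 for SCD and 2.03 for TM7SF2. With equal sums it was 0.11 and not called, 0.93 above the median of all genes. By level SCD ranked 5 of the 31 genes in the control and 1 in the knockdown. In GENCODE v29 a pseudogene, SCDP1, is named after SCD, and reads may be shared with it.

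FASN, the multifunctional enzyme that builds palmitate, stood at 39.1, 43.3 and 41.1 FPKM against 32.9, 31.6 and 36.0. The groups did not overlap. FASN rose by 0.29 (limma adjusted p = 0.00259), and had the opposite sign under equal sums (-0.59, or 0.23 above the median). The ratio of SCD to FASN was 1.52, 1.36 and 1.47 in the knockdown and 0.901, 0.931 and 0.817 in the control. SCD5, a second desaturase gene from the list of further fatty acid genes, fell by 0.26 (10.8 ± 1.17 against 13.2 ± 0.681 FPKM, limma adjusted p = 0.0173). The ratio of SCD to SCD5 was 5.04 to 6.17 against 2.15 to 2.39.

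**Figure D3:**
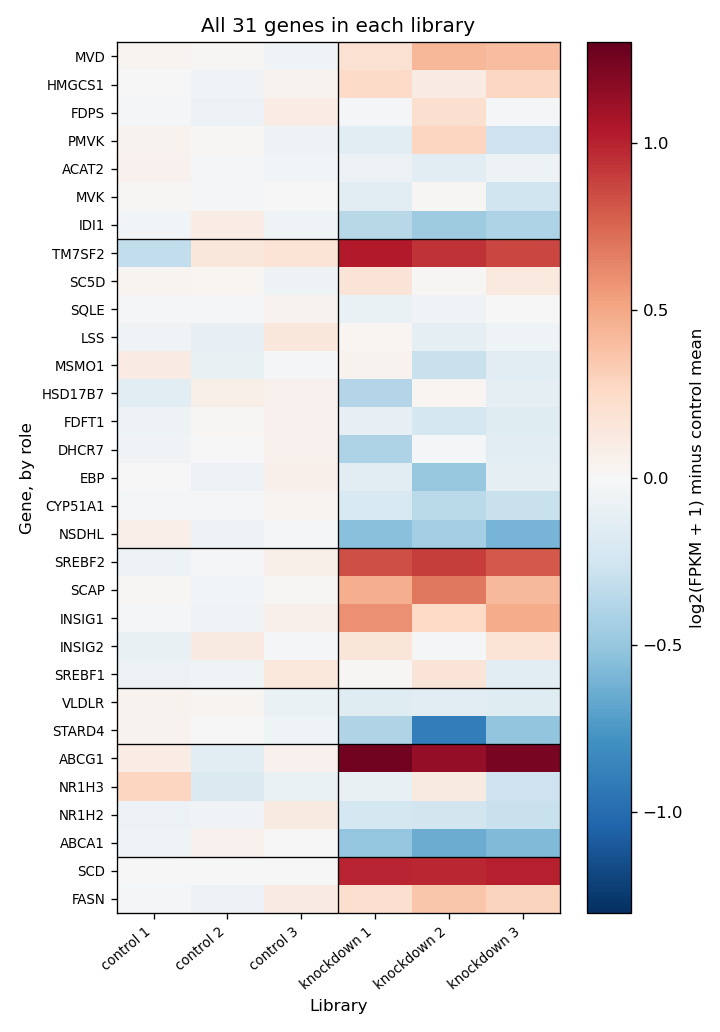
log2(FPKM + 1) of all 31 genes in each library minus the mean of the 3 control libraries, with genes in rows by role and libraries in columns; red is above and blue below the control mean. TM7SF2, SREBF2, ABCG1 and SCD are red in all 3 knockdown libraries, NSDHL, STARD4 and ABCA1 are blue in all 3, and most enzyme rows are pale.

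The libraries of the knockdown varied more than those of the control. The median SD of the 29 genes was 0.080 log2 units within the knockdown and 0.062 within the control. Over all tested genes it was 0.093 and 0.061. Knockdown library 2, the shallowest by the estimate above, was farthest from the knockdown mean for 17 of the 29 genes (58.6%), against 51.2% of all tested genes. It was the highest of the 3 for 12 of the 29, among them PMVK, FDPS and SCAP, and the lowest for 14, among them STARD4, INSIG1, MSMO1 and EBP. Over all 13434 tested genes it was the highest for 4292 and the lowest for 6418. Without it 8 of the 29 were called higher and 11 lower.

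Other genes of lipid synthesis and handling, from 6 lists, moved downward more often than upward. Of 82 tested, 13 rose and 38 fell (62.2% called, median -0.15), beside the 30.5% and 35.9% of all tested genes given above. In the list of further fatty acid genes 3 of 24 rose and 15 fell (75.0% called, against 66.3% of all tested genes). ELOVL1, an elongase of saturated very long chain fatty acids, fell from 34.3 ± 1.63 FPKM in control cells to 8.73 ± 0.336. ACSL4, which activates arachidonate, and HACD2, a dehydratase of the elongation cycle, fell by 1.24 and 1.17. The desaturase genes FADS1 and FADS2, named after their values were seen, were not called (differences of -0.05 and -0.02).

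Sterol storage and transport genes showed 2 rises and 8 falls among 14 tested (71.4% called, against 66.3% of all tested genes). The summed level of the 19 listed was 192 ± 4.30 FPKM against 335 ± 5.20. NPC2, the lysosomal carrier of cholesterol, stood at 36.0 ± 2.30 against 134 ± 3.34 FPKM. NCEH1, a cholesteryl ester hydrolase, stood at 1.80 ± 0.0449 against 7.85 ± 0.217, and GRAMD1B, an ER sterol transfer protein gene, at 2.76 ± 0.178 against 9.55 ± 0.359. In the list of SREBP processing 1 of 11 rose and 6 fell (63.6% called). RNF145 and ERLIN2, whose products take part in sterol-dependent protein turnover in the ER, fell by 0.84 and 0.58, and PAQR3, a Golgi protein gene, fell by 0.51. The protease genes MBTPS1 and MBTPS2, which cleave SREBP and were named after their values were seen, were not called (differences of 0.09 and -0.06).

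Among genes of lipoprotein uptake, export and the LXR partners RXR, 4 of 9 tested rose and 1 fell. That is 55.6% called, against 66.3% of all tested genes. MYLIP, an LXR target gene whose product marks lipoprotein receptors for degradation, rose from 3.38 ± 0.181 FPKM in control cells to 9.22 ± 0.989 (difference 1.22, limma adjusted p = 2.97e-06). The receptor gene LRP1 rose by 0.59, with the opposite sign under equal sums (-0.28, or 0.55 above the median of all genes). Of other sterol enzyme genes 2 of 11 rose and 3 fell (45.5% called). PGRMC1, a haem-binding partner of CYP51A1, fell by 0.79 and CYB5R3 by 0.53. FAXDC2, a hydroxylase family gene, rose by 0.56, with the opposite sign under equal sums (-0.14, or 0.68 above the median of all genes). In the isoprenoid branch 1 of 13 rose and 5 fell (46.2% called), led by COQ2 (-0.58), ZMPSTE24 (-0.52) and DOLK (-0.43).

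**Figure D4:**
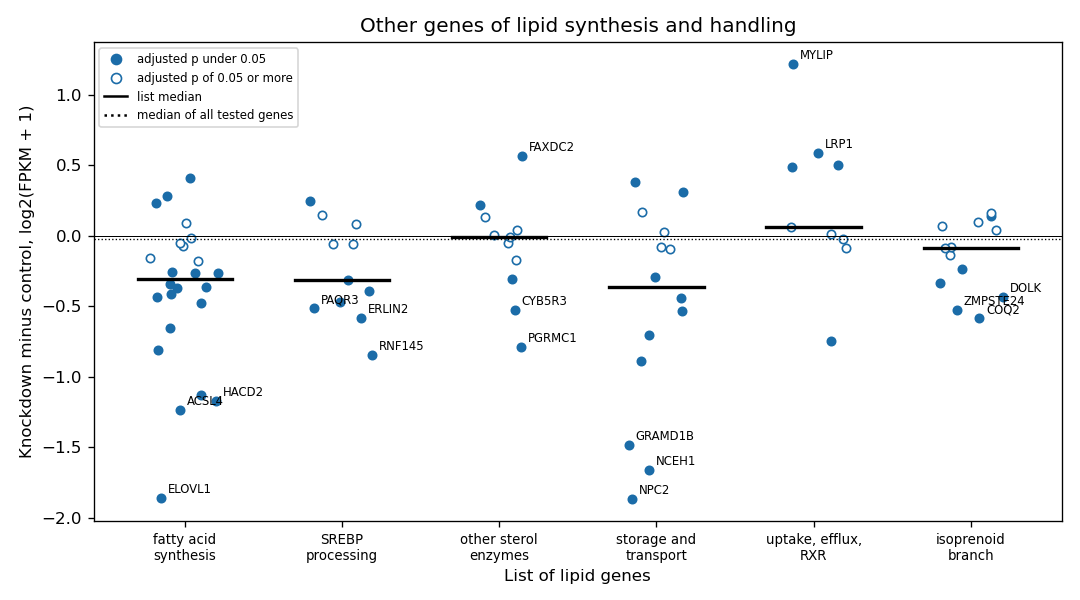
Difference between knockdown and control on the log2(FPKM + 1) scale for each tested gene of 6 further lipid lists; filled points have an adjusted p under 0.05, thick lines are list medians and the dotted line is the median of all tested genes. The storage and transport list and the fatty acid list reach lowest, with NPC2 and ELOVL1 near -1.9, and MYLIP is the highest gene shown.

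The scaling of the libraries set which of the 29 genes were called higher. With median-of-ratios rescaling 8 were higher and 8 lower, and quantile normalization gave 11 and 4. When every column was brought to the same sum, 0 were higher and 26 lower, while 522 of all tested genes were higher and 11689 lower. Those sums are dominated by SNORD3A, RN7SK, RN7SL1, RN7SL2, RMRP and RPPH1, small RNAs that together hold 79.7% to 82.0% of the knockdown columns and 63.8% to 64.9% of the control columns. SNORD3A was listed at 1199100 to 1533720 FPKM in the knockdown and at 0 in all 3 control libraries. RN7SK was listed at 0 in all 3 knockdown libraries and at 217308 to 226681 FPKM in the control. With these 6 left out of the sums, 8 of the 29 were higher and 10 lower. SCD, TM7SF2 and SREBF2 had the largest positive differences under each of the 5 scalings plotted.

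**Figure D5:**
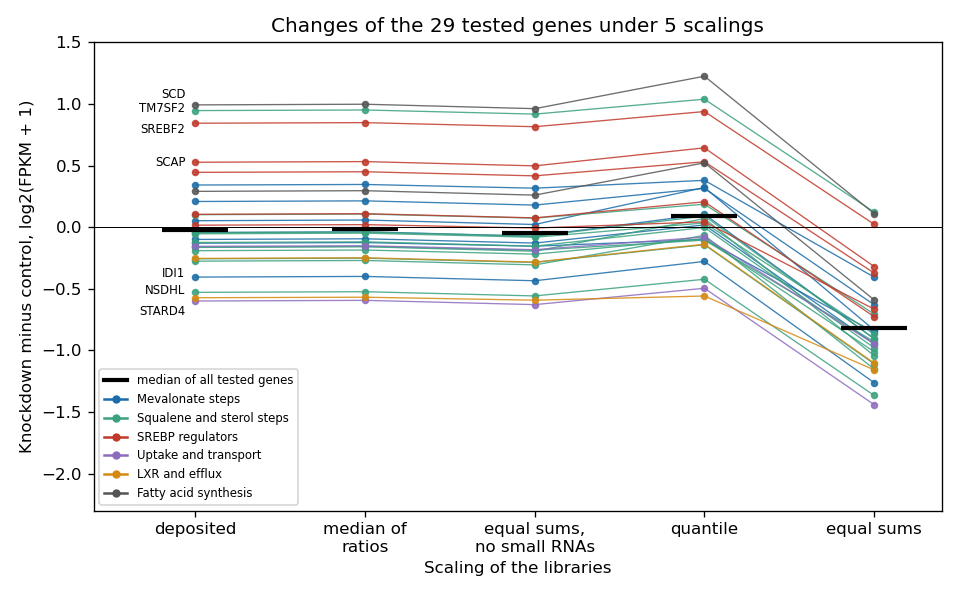
Difference between knockdown and control on the log2(FPKM + 1) scale for the 29 tested genes (lines, coloured by role) under 5 scalings of the libraries, with the median of all tested genes as a black bar. SCD, TM7SF2 and SREBF2 are the top 3 lines throughout, and equal sums moves the whole set and the median of all genes down together.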

How the data were processed

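Gene FPKM values of 6 SH-SY5Y libraries were used as deposited by the authors, each library as a column of its own, mapped to its group by the sample titles. Cuffdiff 2.2.1, SAMtools and TopHat2 2.1.0 are named, with build hg38, per the submitters' processing notes. The kit was directional per the labels' protocols, while no source used here gives the annotation or whether counting used strand. Values were taken as log2(FPKM + 1). Genes whose mean reached 1 FPKM were compared by limma 3.58.1 (R 4.3.3) with an intensity trend, two-sided, and p-values were adjusted over 13434 genes. The members and lists were chosen with earlier results of these data known. Values in all libraries are given for the regulators, for members called with a difference of at least 0.5, and for members under the minimum. HMGCS1, IDI1, SQLE, VLDLR and FASN were added to these after their values were seen. Of each further list, up to 3 called genes with the largest difference are named. A gene this rule would name is not reported here. LBR, SCD5, FADS1, FADS2, MBTPS1 and MBTPS2 were named after their values were seen. Promoters are those of the 4 called members with the largest log2 difference that the promoter table holds. C12orf49 and C14orf1, older symbols of 2 listed genes, were matched through RefSeq synonyms. Positions are 1-based from GENCODE v29 (GRCh38), where all 31 symbols matched. Python 3.11.15, pandas 2.3.3, numpy 2.4.6 and matplotlib 3.10.9 were used. Alternatives were other pseudocounts, minimums, scalings and limma settings, a replicate block, and leaving out each library. The equal sums without 6 small RNAs were added after seeing the data.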

Additional observations from a re-analysis of the deposited data

How the results depend on the processing

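With columns rescaled to equal sums, 0 of the 29 genes were called higher and 26 lower, 1 of the further lipid genes was higher and 80 lower, and 522 of all tested genes were higher and 11689 lower. Under that scaling HMGCS1 (-0.63), MVD (-0.40), FDPS (-0.83), SC5D (-0.70), SREBF1 (-0.66), SCAP (-0.32), INSIG1 (-0.37), INSIG2 (-0.73), FASN (-0.59), FAXDC2 (-0.14) and LRP1 (-0.28) had the opposite sign. That scaling divides by sums that small RNAs dominate, and beyond this the cause was not tested. With quantile normalization 4 of the 29 were lower, 20 further lipid genes were higher, and FDFT1 had the opposite sign (0.070). Leaving out 1 library at a time gave 7 to 8 higher and 6 to 11 lower among the 29, 11 to 15 higher and 34 to 39 lower among the further lipid genes, and 3598 to 4257 higher and 4394 to 4883 lower among all genes. TARDBP ran from -1.21 to -1.17 in these fits. The replicate block gave 8 higher and 8 lower among the 29 and 3894 higher and 4667 lower among all genes. Deviations of libraries with the same number correlated at -0.018, -0.185 and -0.091, and those with different numbers at -0.095 to 0.154. These values gave no sign that the numbers pair the libraries, but with 3 libraries in each group they cannot exclude it. Of the 16 called genes, 4 kept their call and direction under every alternative that tested them (IDI1, NSDHL, STARD4 and ABCA1). Under equal sums the median of all genes was -0.82, which works against calls of higher and toward calls of lower. The tally therefore does not compare rises with falls. SCD, TM7SF2, SREBF2, SCAP, INSIG1, MVD and FASN lost or reversed their call under equal sums alone. HMGCS1, FDFT1, CYP51A1, EBP and NR1H2 lost theirs under other alternatives. Absolute depth is unknown, so the precision of low genes such as ABCG1 and NR1H3 cannot be given from counts.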
